A study of Mus musculus with 8 samples.

Results

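The 9 genes described here encode protein kinases of the AGC family. Akt1, Akt2, Sgk1, Sgk2, Sgk3, Prkca, Prkcd and Prkcz are grouped as downstream of mTOR complex 2. Pdpk1 is listed with them because its product phosphorylates the others. These genes were taken by gene symbol from the count tables, where they make up 9 of 24062 gene entries. All 9 were among the 13767 genes with enough counts to test. Liver RNA was compared in 4 groups of 2 libraries. In the group called shDnajb9, mice of 3 months had received an adenovirus carrying a short hairpin RNA against Dnajb9, a co-chaperone of the endoplasmic reticulum, and its control is lacZ1, at the same age. In the group called shRictor, mice of 4 months had received a hairpin virus against Rictor, the subunit that defines mTOR complex 2, and its control is lacZ2. All animals were lean C57BL/6 mice of wild-type background fed at will, all received 0.1 OD of virus, and all were killed 1 week afterwards with food withdrawn for 6 h. What exactly the lacZ viruses deliver, the gene or a hairpin against it, is not stated, and neither is the promoter that drives the hairpins. It is also not stated that both libraries of a group are from different animals, so p-values reflect only the spread between these libraries.

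AGC kinases become active when they are phosphorylated at several sites. Pdpk1 encodes PDK1, which phosphorylates the activation loop of the others, whereas mTOR complex 2 phosphorylates the hydrophobic and turn motifs near the carboxyl terminus of Akt, SGK and several protein kinase C isoforms. In liver this arm of insulin signalling acts on glucose output and lipid synthesis. The measurements below are transcript levels, and neither kinase protein nor phosphorylation was measured in these files.

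Among the protein kinase C genes, Prkca and Prkcd were lower and Prkcz was higher in the hairpin livers, so the sequences just upstream of their transcription starts are shown first. The 250 bases before the start were read from the RefSeq promoter table on GRCm38.p6, and all 3 genes lie on the minus strand. The windows are chr11:108343889-108344138 for Prkca, chr14:30626209-30626458 for Prkcd and chr4:155361429-155361678 for Prkcz. Capitals mark GC boxes (GGGCGG or its complement CCGCCC), E-boxes (CACGTG) and CCAAT boxes (CCAAT or its complement ATTGG).
Prkca: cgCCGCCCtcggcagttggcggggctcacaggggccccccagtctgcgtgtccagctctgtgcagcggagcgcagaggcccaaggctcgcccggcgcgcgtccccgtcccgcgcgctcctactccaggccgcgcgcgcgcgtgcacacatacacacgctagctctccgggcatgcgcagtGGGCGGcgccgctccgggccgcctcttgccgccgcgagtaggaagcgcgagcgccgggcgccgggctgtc
Prkcd: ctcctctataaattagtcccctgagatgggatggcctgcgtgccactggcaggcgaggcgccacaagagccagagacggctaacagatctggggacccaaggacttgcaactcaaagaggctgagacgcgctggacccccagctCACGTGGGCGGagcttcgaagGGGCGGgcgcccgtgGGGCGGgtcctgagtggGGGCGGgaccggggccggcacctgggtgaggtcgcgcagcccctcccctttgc
Prkcz: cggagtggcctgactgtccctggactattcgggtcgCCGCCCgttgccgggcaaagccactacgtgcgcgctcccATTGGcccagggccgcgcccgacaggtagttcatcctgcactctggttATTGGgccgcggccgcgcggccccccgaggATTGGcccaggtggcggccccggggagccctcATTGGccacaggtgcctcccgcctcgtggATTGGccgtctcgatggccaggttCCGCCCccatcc
The Prkca window held 2 GC boxes and no CCAAT box. The Prkcd window held 4 GC boxes and 1 E-box, which overlaps the first GC box by its last G. The Prkcz window held 2 GC boxes and 5 CCAAT boxes, all of them written as ATTGG on the strand shown. No window held the cAMP response element TGACGTCA or the forkhead motif TGTTTAC on either strand. Of 32851 promoters of the same length, 32.7% held at least 1 GC box, 33.8% at least 1 CCAAT box and 6.02% this E-box. The cAMP response element was in 1.55% and the forkhead motif in 3.17%. The share with several sites was not computed. The windows of Prkca, Prkcd and Prkcz are 76.8%, 67.6% and 70.8% G or C. Table starts lay 40, 2 and 67 bases from the GENCODE gene start of Prkca, Prkcd and Prkcz, and the table lists 1, 2 and 3 starts for them, of which 1 each is shown. RefSeq promoters were matched for 7 of the 9 genes, and Sgk2 and Sgk3 were not matched.

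The targets of the hairpins come first, as a check of the labels. A gene was called, and is said to have risen or fallen, at a Benjamini-Hochberg adjusted p under 0.05 over all 13767 tested genes in the quasi-likelihood test of edgeR. Dnajb9 stood at 22.0 and 20.3 CPM (counts scaled to library size, here with the TMM factors of edgeR) in shDnajb9, against 30.6 and 38.01 CPM in lacZ1, a log2 fold change of -0.70 (adjusted p = 0.056, edgeR). Rictor stood at 40.1 and 41.9 CPM in shRictor, against 52.3 and 65.1 CPM in lacZ2, a log2 fold change of -0.52 (adjusted p = 0.231, edgeR). Both were lower in every library of their own group, and neither passed the test. Rictor was also lower in both shDnajb9 libraries, at 33.3 and 63.3 CPM, against 65.4 and 68.7 CPM in lacZ1 (log2 fold change -0.46, adjusted p = 0.239), and its difference between the contrasts was -0.06 (adjusted p = 0.97, edgeR). The level of Rictor therefore does not set the shRictor group apart from shDnajb9. Dnajb9 stood at 61.0 and 43.8 CPM in shRictor, against 40.3 and 38.7 CPM in lacZ2 (0.41, adjusted p = 0.271, edgeR). The names shDnajb9 and shRictor below therefore stand for the hairpin delivered.

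Gene counts per library ran from 6426164 to 11383532, and the 9 genes together held 2767 to 6040 of them. The share of HTSeq counts without a unique alignment was 41.3% and 42.0% for the shDnajb9 libraries, against 22.9% and 24.9% for lacZ1. For shRictor it was 32.7% and 26.7%, against 24.6% and 24.2% for lacZ2. The 2 libraries of each group differed beyond counting error (chi-square of 18.2 to 52.0 per degree of freedom). The libraries shDnajb9 replicate 1 and lacZ2 replicate 1 stood apart in the share of gene counts taken by Rpph1, the RNA of ribonuclease P, at 4.70% and 4.26%, against 1.11% to 2.03% in the other 6. Without both, shDnajb9 and lacZ2 hold 1 library each, and only effect sizes are given here, for the genes called with all 8 libraries. The log2 fold changes in shDnajb9 minus lacZ1 were then 0.45 for Akt2, -1.54 for Prkca and -0.86 for Prkcd. In shRictor minus lacZ2 they were -0.62 for Sgk3, -1.055 for Prkcd and 0.84 for Prkcz. When scaled to total counts only, all tested genes had a median of -0.46 (log2) for shDnajb9 over lacZ1 and of -0.42 for shRictor over lacZ2, whereas TMM gave -0.05 and -0.02. Under it the called genes split into 610 higher and 3349 lower in shDnajb9, against 1597 and 1728 with TMM, and into 437 higher and 2807 lower in shRictor, against 1006 and 1502 with TMM.

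Akt kinases carry the insulin signal to glucose uptake, glycogen, lipid synthesis and FoxO factors. Akt2, the main isoform for insulin action in hepatocytes, was higher in both hairpin groups, and Akt1, tied more to growth and survival, was slightly lower. Akt2 stood at 236 and 145 CPM in shDnajb9, against 108 and 105 CPM in lacZ1. Both shDnajb9 libraries lay above both controls, with replicate 1 far above replicate 2. The log2 fold change was 0.84 (SE 0.278, adjusted p = 0.0435, edgeR), so Akt2 rose in shDnajb9. This is bulk tissue, in which a change in the share of a cell type and a change in RNA per cell cannot be told apart. The call was lost without shDnajb9 replicate 1 (log2 fold change 0.45, adjusted p = 0.333), without lacZ1 replicate 1 or 2 (0.83, adjusted p = 0.222, and 0.81, adjusted p = 0.164), in a fit of the 4 libraries of the pair alone (adjusted p = 0.0605), and with scaling to total counts only (0.38, adjusted p = 0.246). Leaving out lacZ2 replicate 2 or either shRictor library, which are not in this pair, also took the adjusted p to between 0.0502 and 0.0595. In the Rictor pair, Akt2 stood at 181 and 166 CPM in shRictor, against 114 and 103 CPM in lacZ2. The groups did not overlap, but the log2 fold change of 0.68 (95% interval 0.09 to 1.28, adjusted p = 0.108, edgeR) did not pass the test. It passed without shDnajb9 replicate 1 or 2, which enter only through the shared spread (adjusted p = 0.0471 and 0.0491).

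Akt1 stood at 87.5 and 80.7 CPM in shDnajb9, against 103 and 88.2 CPM in lacZ1. It stood at 79.0 and 87.3 CPM in shRictor, against 119 and 92.2 CPM in lacZ2. Every hairpin library lay below every control library, by small margins, with log2 fold changes of -0.18 (adjusted p = 0.59) and -0.34 (adjusted p = 0.357, edgeR). Akt1 passed the test only in the Rictor contrast with scaling to total counts only (-0.76, adjusted p = 0.0487). Because both genes are counted in the same library, the ratio of their counts needs no scaling between libraries. Counts of Akt2 over Akt1 stood at 2.70 and 1.79 in shDnajb9, against 1.05 and 1.19 in lacZ1, and at 2.29 and 1.91 in shRictor, against 0.957 and 1.11 in lacZ2. Akt2 thus made up 64.2% to 73.0% of the Akt1 and Akt2 counts in the hairpin libraries and 48.9% to 54.3% in the control libraries. On the mean of log2 ratios, this ratio was 1.97-fold higher in shDnajb9 than in lacZ1 and 2.03-fold higher in shRictor than in lacZ2. Groups of 2 allow no exact permutation p below 0.333, so these ratios, which are not adjusted for transcript length, are described without a test.

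**Figure D1:**
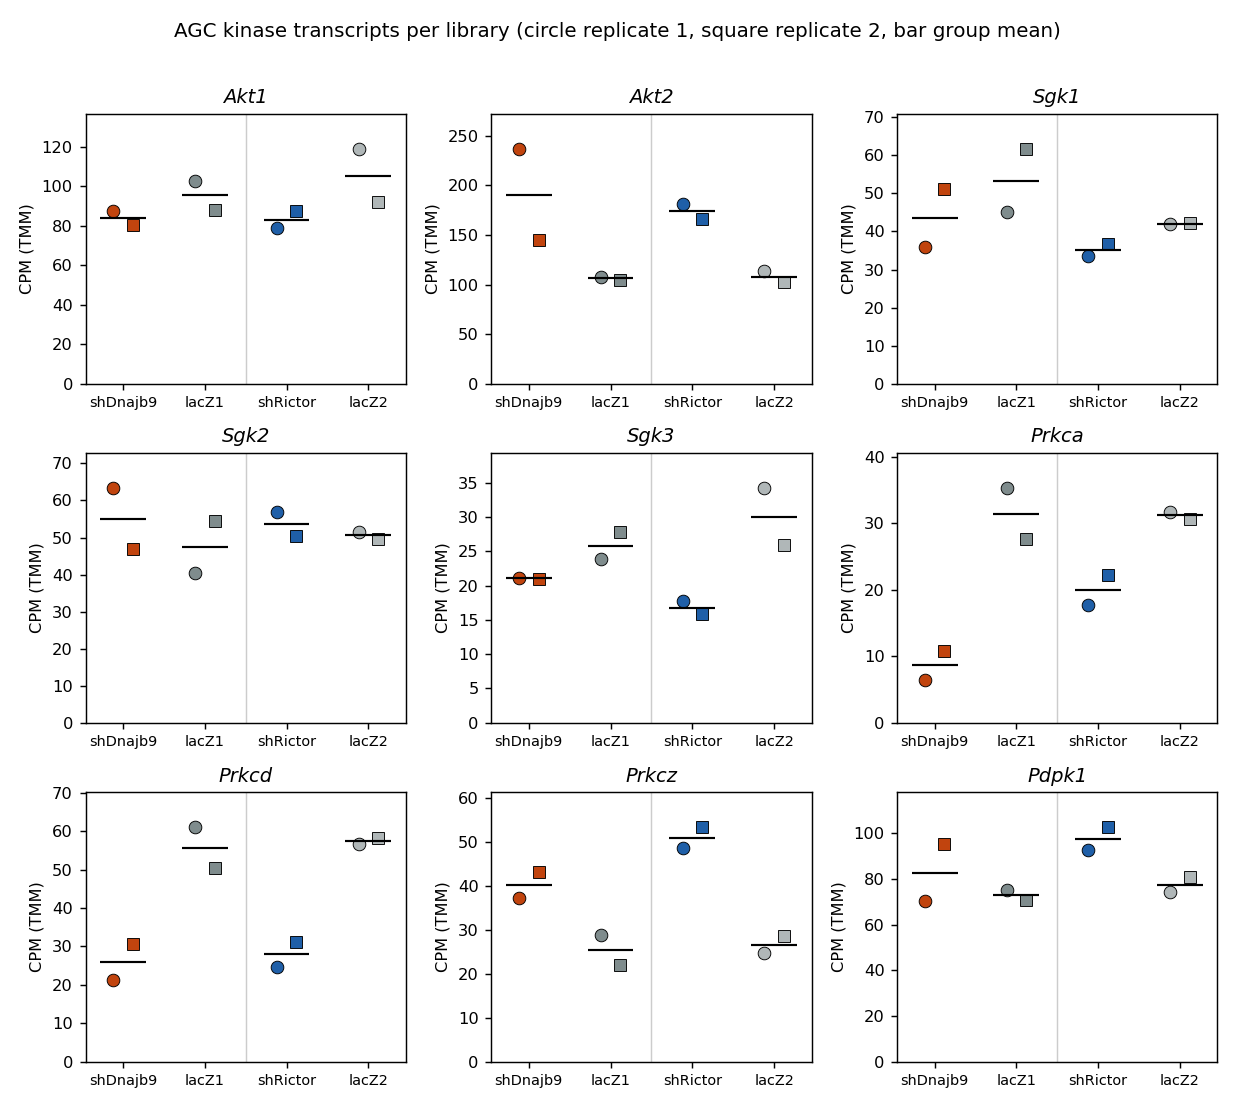
Each panel plots 1 kinase gene, with TMM-normalised CPM on the vertical axis and the groups shDnajb9, lacZ1, shRictor and lacZ2 from left to right. Circles are replicate 1, squares replicate 2 and bars the mean of the 2 libraries. Akt2 and Prkcz are higher in all 4 hairpin libraries than in all 4 lacZ libraries, as are 16.2% of all tested genes. Akt1, Sgk3, Prkca and Prkcd are lower in all 4, as are 17.9%.

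SGK kinases resemble Akt in their catalytic domain and share several of its substrates. Sgk3, which binds endosomes through a phosphoinositide-binding PX domain, fell in shRictor. It stood at 17.8 and 15.8 CPM in shRictor, against 34.2 and 25.9 CPM in lacZ2. The groups did not overlap, and the log2 fold change was -0.84 (SE 0.235, adjusted p = 0.0264, edgeR). The call was lost without lacZ2 replicate 1 (-0.63, adjusted p = 0.206), without shRictor replicate 1 (-0.91, adjusted p = 0.0981) and without shRictor replicate 2 (-0.75, adjusted p = 0.165). In the Dnajb9 pair, Sgk3 stood at 21.2 and 20.99 CPM in shDnajb9, against 23.8 and 27.8 CPM in lacZ1. Both shDnajb9 libraries lay lower, with a log2 fold change of -0.29 (adjusted p = 0.379).

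Sgk1, a kinase induced by glucocorticoids and mineralocorticoids that raises sodium channel abundance in the kidney, did not pass the test in either pair. It stood at 35.8 and 51.2 CPM in shDnajb9, against 45.2 and 61.6 CPM in lacZ1, and these groups overlap. It stood at 33.6 and 36.8 CPM in shRictor, against 42.1 and 42.1 CPM in lacZ2, where both hairpin libraries were lower. The log2 fold changes were -0.29 (95% interval -0.83 to 0.25, adjusted p = 0.412) and -0.26 (adjusted p = 0.527, edgeR). Sgk2, the relative found mainly in liver and kidney, stood at 63.3 and 46.9 CPM in shDnajb9, against 40.5 and 54.3 CPM in lacZ1. In the Rictor pair Sgk2 stood at 56.8 and 50.3 CPM in shRictor, against 51.6 and 49.6 CPM in lacZ2. The groups overlap in both pairs, and the log2 fold changes of 0.21 (95% interval -0.31 to 0.74) and 0.08 (adjusted p = 0.54 and 0.854, edgeR) change sign under scaling to total counts only, to -0.22 and -0.32.

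Protein kinase C isoforms differ in what activates them. Prkca encodes the conventional isoform alpha, which responds to calcium and diacylglycerol, Prkcd the delta isoform, which responds to diacylglycerol without calcium, and Prkcz the atypical zeta isoform, which responds to neither. In these livers Prkca and Prkcd were lower and Prkcz was higher in both hairpin groups than in their controls.

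Prkca in shDnajb9 had the largest log2 fold change of the 9 genes in either contrast. It stood at 6.49 and 10.8 CPM in shDnajb9, against 35.2 and 27.6 CPM in lacZ1. Both shDnajb9 libraries lay far below both controls. The log2 fold change was -1.82 (SE 0.282, 95% interval -2.43 to -1.22, adjusted p = 0.000872, edgeR), which leaves 0.282 of the control level, and Prkca was called in each of 18 alternative settings, at -2.28 to -1.53. In the Rictor pair Prkca stood at 17.8 and 22.2 CPM in shRictor, against 31.7 and 30.7 CPM in lacZ2. Both hairpin libraries were lower again, but the log2 fold change of -0.64 (95% interval -1.21 to -0.08, adjusted p = 0.111, edgeR) did not pass the test. With scaling to total counts only it did (-1.05, adjusted p = 0.0343). The difference between the contrasts, Rictor minus Dnajb9, was 1.18 (SE 0.382, 95% interval 0.36 to 2.01, adjusted p = 0.407, edgeR) and did not pass the test.

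Prkcd fell in both. It stood at 21.4 and 30.7 CPM in shDnajb9, against 60.9 and 50.4 CPM in lacZ1. The log2 fold change was -1.09 (SE 0.252, adjusted p = 0.00902, edgeR). It stood at 24.7 and 31.3 CPM in shRictor, against 56.7 and 58.3 CPM in lacZ2. The log2 fold change there was -1.04 (SE 0.248, adjusted p = 0.0122, edgeR). No hairpin library reached any control library. The summed markers of macrophages, stellate cells, T and NK cells and cholangiocytes, listed further on, were also lower in both hairpin groups. Those of hepatocytes were higher, and those of endothelial cells overlapped their controls in both pairs in CPM. B cell markers overlapped in the Dnajb9 pair and were lower in shRictor. Neutrophil markers were lower in shDnajb9 and overlapped in the Rictor pair in CPM. The part of these shifts in the Prkcd values was not tested. Leaving out lacZ1 replicate 1 (-0.97, adjusted p = 0.0933) or replicate 1 of shDnajb9 (-0.86, adjusted p = 0.0712) ended the call in the Dnajb9 pair. The Rictor call was lost without lacZ2 replicate 1 (-1.06, adjusted p = 0.0636), lacZ2 replicate 2 (adjusted p = 0.0553) or shRictor replicate 1 (-0.87, adjusted p = 0.118).

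Prkcz rose in shRictor, where it stood at 48.7 and 53.4 CPM, against 24.8 and 28.6 CPM in lacZ2. The log2 fold change was 0.93 (SE 0.233, adjusted p = 0.015, edgeR), or 1.91-fold. The call was lost without lacZ2 replicate 1 (0.84, adjusted p = 0.123), shRictor replicate 1 (adjusted p = 0.0512) or shRictor replicate 2 (0.87, adjusted p = 0.0861), and with scaling to total counts only the log2 fold change was 0.54 (adjusted p = 0.151). In the Dnajb9 pair Prkcz stood at 37.3 and 43.2 CPM in shDnajb9, against 28.8 and 22.0 CPM in lacZ1. The groups did not overlap, and the log2 fold change of 0.66 (95% interval 0.16 to 1.17, adjusted p = 0.0559, edgeR) lay just outside the threshold, and just inside it with the size factors of DESeq2 in place of TMM (adjusted p = 0.0498).

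Ratios of counts within a library set the isoforms apart without any scaling. Prkcz over Prkca stood at 5.74 and 3.99 in shDnajb9, against 0.817 and 0.797 in lacZ1. The same ratio was 2.74 and 2.41 in shRictor, against 0.780 and 0.931 in lacZ2. Prkcz counts thus exceeded Prkca counts in every hairpin library and fell short of them in every control library. Prkcz over Prkcd stood at 1.75 and 1.41 in shDnajb9, against 0.472 and 0.437 in lacZ1, and at 1.97 and 1.71 in shRictor, against 0.436 and 0.491 in lacZ2. On the mean of log2 ratios, Prkcz over Prkcd was 3.45-fold higher in shDnajb9 and 3.96-fold higher in shRictor than in the control. Of the 7 ratios formed, Prkcd over Prkca was the one that ran in opposite directions with no overlap in either pair. It stood at 3.29 and 2.83 in shDnajb9, against 1.73 and 1.82 in lacZ1, and at 1.39 and 1.41 in shRictor, against 1.79 and 1.90 in lacZ2.

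**Figure D2:**
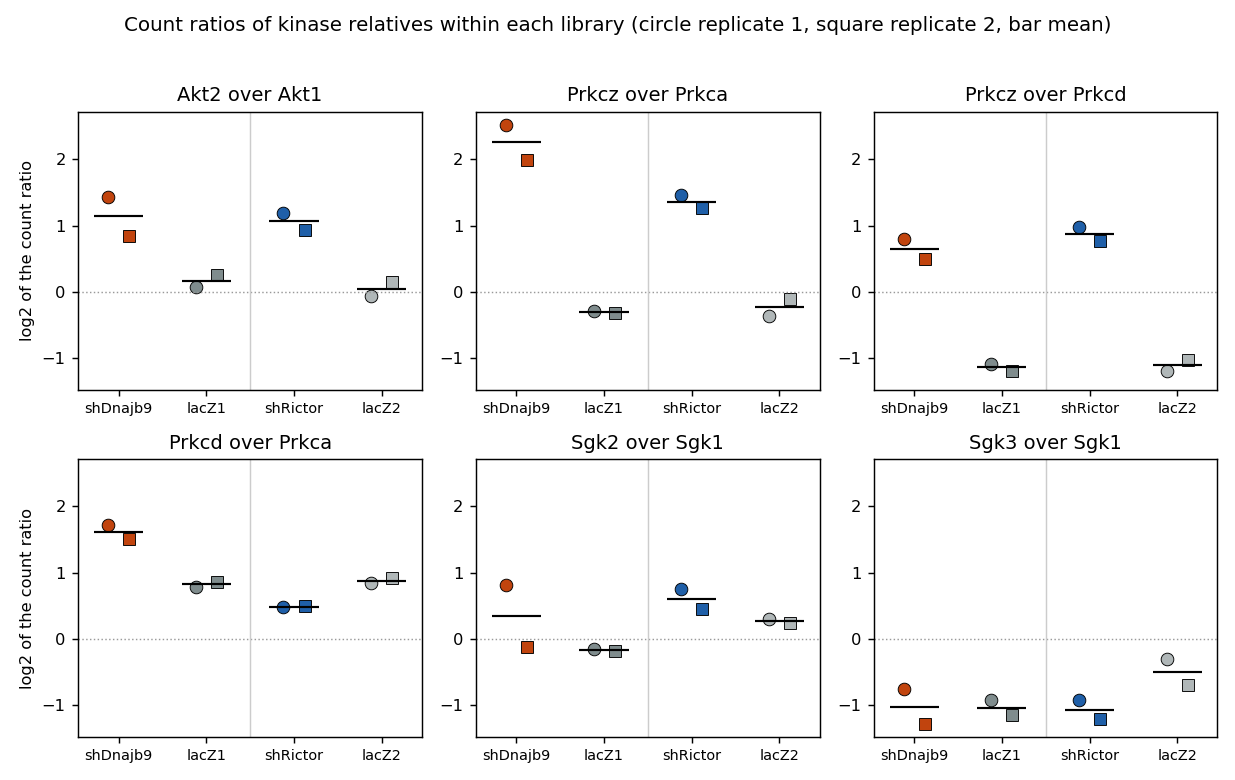
Each panel plots the log2 ratio of the counts of 2 related kinase genes in each library, with shDnajb9, lacZ1, shRictor and lacZ2 from left to right. Circles are replicate 1, squares replicate 2 and bars group means, and the dotted horizontal line marks equal counts. Prkcz over Prkca lies above 0 in all 4 hairpin libraries and below 0 in all 4 lacZ libraries.

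In CPM, markers of several cell types differed between hairpin and control groups, and those of endothelial cells overlapped in both pairs. Beside the marker calls below, 11.6% of all tested genes rose and 12.6% fell in shDnajb9. In shRictor 7.31% rose and 10.9% fell. The 10 hepatocyte markers summed to 78225 and 62581 CPM in shDnajb9, against 38149 and 51539 CPM in lacZ1, and to 63633 and 68006 CPM in shRictor, against 20444 and 40985 CPM in lacZ2. Alb, the serum albumin gene, reached at least 12012 CPM in every library, whereas Ass1, of the urea cycle, was at 0 in 6 libraries and at most at 0.228 CPM. Of the 9 tested, 6 rose in shDnajb9 and 5 in shRictor. The 10 markers of Kupffer cells and macrophages, none at 0 in any library, summed to 1204 and 1387 CPM in shDnajb9, against 1441 and 1689 CPM in lacZ1, with 2 of 9 tested falling. In shRictor they summed to 835 and 984 CPM, against 1420 and 1638 CPM in lacZ2, with 4 of 9 falling. The 10 markers of stellate cells and fibroblasts, none at 0, summed to 346 and 457 CPM in shDnajb9, against 698 and 608 CPM in lacZ1 (5 fell, 1 rose), and to 448 and 426 CPM in shRictor, against 610 and 576 CPM in lacZ2 (2 fell). The 10 endothelial markers, none at 0, overlapped between shRictor and lacZ2, with 611 to 652 CPM against 545 to 628 CPM, and stood at 636 to 762 CPM in shDnajb9, against 631 to 653 CPM in lacZ1. Of these 10, 1 rose in shDnajb9, and none was called in shRictor. The markers of T and NK cells, none at 0, summed to 34.6 and 47.7 CPM in shDnajb9, against 70.9 and 61.0 CPM in lacZ1, with 2 of 10 falling, and to 42.9 and 41.2 CPM in shRictor, against 56.2 and 89.3 CPM in lacZ2, with 3 falling. Those of cholangiocytes, with Cftr at 0 in 3 libraries, ran from 28.3 to 59.3 CPM in hairpin and from 59.6 to 111 CPM in lacZ libraries. Most of this sum is 1 gene, Spp1, at 23.9 to 104 CPM, and no other marker of the list exceeded 6.04 CPM. Of the 4 tested, 2 fell in shDnajb9 and none in shRictor. Of 7 neutrophil markers 5 were tested, and the list summed to 1.05 and 1.03 CPM in shDnajb9, against 25.1 and 5.96 CPM in lacZ1, with 4 called as lower. It summed to 1.76 and 4.79 CPM in shRictor, against 14.2 and 3.97 CPM in lacZ2, with 1 called as lower. S100a8 was at 0 in 4 libraries, Mpo in 3, and Ngp, Ltf and Camp in 1 each. The 4 B cell markers found in the tables summed to between 5.23 and 7.96 CPM in every library. As a share of gene counts, endothelial markers were lower without overlap in both pairs, and so were neutrophil markers in shRictor. The endothelial share was 0.0599% and 0.0549% in shRictor, against 0.0697% and 0.07098% in lacZ2. It was 0.0473% and 0.0696% in shDnajb9, against 0.0728% and 0.06998% in lacZ1. Hepatocyte markers stayed higher, at the closest 5.71% in shDnajb9 against 5.52% in lacZ1. The endothelial and neutrophil overlaps thus depend on the scaling. The part of the marker shifts in the values of the 9 genes was not tested.

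Pdpk1 did not pass the test in either pair. It stood at 70.2 and 95.3 CPM in shDnajb9, against 75.4 and 71.0 CPM in lacZ1, which overlap. It stood at 92.8 and 103 CPM in shRictor, against 74.3 and 80.9 CPM in lacZ2, which do not. The log2 fold changes were 0.18 (95% interval -0.33 to 0.69, adjusted p = 0.598) and 0.33 (adjusted p = 0.369, edgeR), and both are negative under scaling to total counts only, at -0.23 and -0.07.

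Over the 9 genes, 1 rose and 2 fell in shDnajb9 against lacZ1, when 24.2% of all tested genes were called in that comparison (11.6% higher, 12.6% lower). In shRictor against lacZ2, 1 rose and 2 fell as well, when 18.2% of all tested genes were called (7.31% higher, 10.9% lower). Prkcd is the one gene called in both in the same direction, which held for 11% of all tested genes. The median log2 fold change of the 9 genes was -0.18 in shDnajb9, beside -0.05 over all tested genes, and -0.26 in shRictor, beside -0.02. Libraries of both groups did not overlap for 6 of the 9 genes in the Dnajb9 pair, 2 higher and 4 lower, and for 67.5% of all tested genes (32.4% higher, 35.1% lower). They did not overlap for 8 of the 9 in the Rictor pair, 3 higher and 5 lower, and for 60.4% of all tested genes (28.8% higher, 31.6% lower). Akt2 and Prkcz were higher in all 4 hairpin libraries than in all 4 lacZ libraries, as were 16.2% of all tested genes. Akt1, Sgk3, Prkca and Prkcd were lower in all 4, as were 17.9%.

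**Figure D3:**
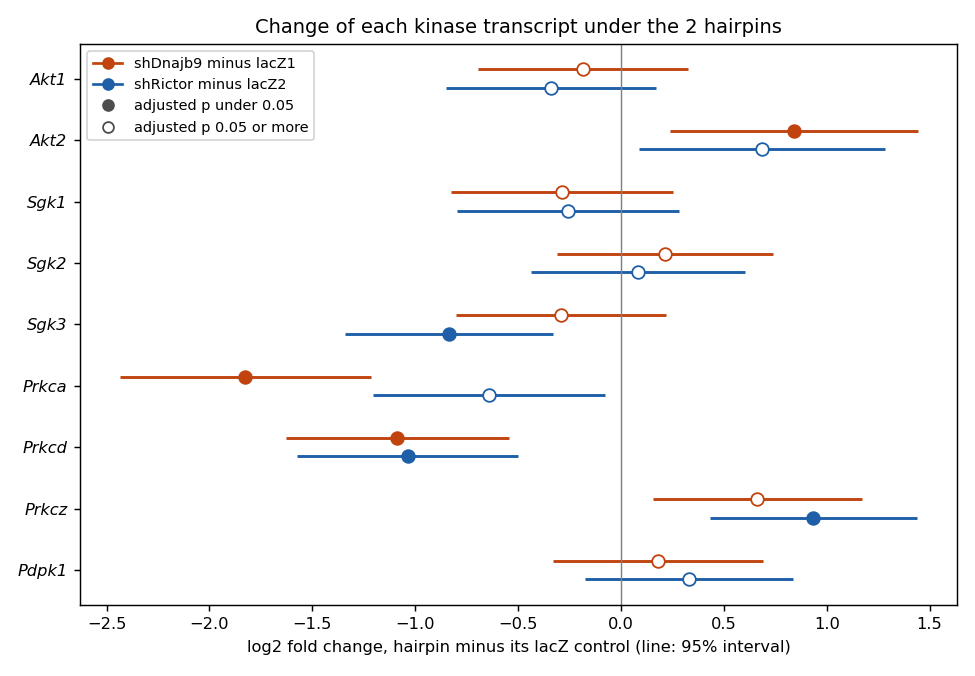
The horizontal axis gives the log2 fold change of each kinase gene, with shDnajb9 minus lacZ1 above shRictor minus lacZ2 in each row. Lines are 95% intervals derived from the edgeR test, filled points have an adjusted p under 0.05 and open points do not. Both contrasts have the same sign for each of the 9 genes. The share of all tested genes with the same sign was not computed, and the signs of Sgk2 and Pdpk1 depend on the scaling.

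**Figure D4:**
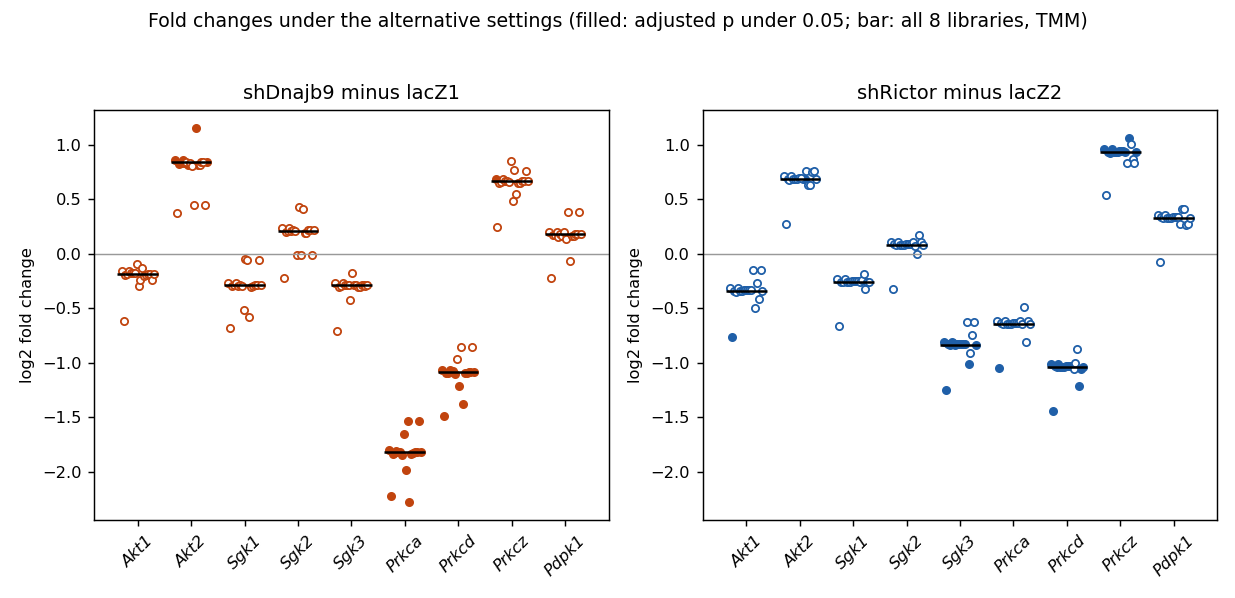
The vertical axis gives the log2 fold change of each kinase gene under 18 alternative settings, with shDnajb9 minus lacZ1 on the left and shRictor minus lacZ2 on the right. Filled points have an adjusted p under 0.05, open points do not, and bars show the value from all 8 libraries with TMM scaling. Prkca in shDnajb9 is filled in every setting, at -2.28 to -1.53.

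None of the 9 genes passed the test of the difference between the contrasts, in which 0.00726% of all genes were called, and 1 of the 9, Prkca, had an unadjusted p under 0.05. DESeq2 and limma-voom called none of the 9 either. The contrasts also differ in the age of the mice, which cannot be told apart from the hairpin. Between the control groups, lacZ2 minus lacZ1, none of the 9 genes was called, none had an unadjusted p under 0.05, and 0% of all genes were called in edgeR. DESeq2 and limma-voom called none of the 9 there. The control values of 8 of the 9 genes overlap, while 21.7% of all tested genes do not overlap (9.97% lower in lacZ2). The exception is Sgk1, lower in both lacZ2 libraries (log2 fold change -0.34, 95% interval -0.88 to 0.19).

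Per kilobase of exon, the order of the 9 transcripts differed between hairpin and control livers. The order rests on the length of all annotated exons of a gene, such as 7131 bases for Akt2 and 4098 for Akt1. Which of these exons the livers use was not tested. In shDnajb9, Akt2 led with 26.7 CPM per kb on average, ahead of Akt1 with 20.5, and their libraries overlap. In shRictor, Akt2 averaged 24.4 and Akt1 20.3 CPM per kb, with no overlap. In lacZ1 and lacZ2, Akt1 led, at 23.3 and 25.7 CPM per kb, ahead of Akt2, at 14.9 and 15.2 CPM per kb, with no overlap between these genes. Sgk2 followed them in every group, between 13.9 and 16.1 CPM per kb, and its libraries overlap those of Akt2 in both lacZ groups.
Below them in shDnajb9, Sgk1 (8.88 CPM per kb), Pdpk1 (7.56) and Prkcz (6.37) overlap in turn, followed by Prkcd (4.69), Sgk3 (1.47) and, last, Prkca (0.964). In lacZ1, Sgk1 (10.9) overlaps both Sgk2 above it and Prkcd (10.04) below it, and Prkcz (4.02) overlaps Prkca (3.50), with Pdpk1 between these and Sgk3 last (1.80). In shRictor the order was Pdpk1 (8.93), Prkcz (8.08), Sgk1 (7.18), Prkcd (5.05), Prkca (2.22) and Sgk3 (1.17), with no overlap between neighbours. In lacZ2 it ran from Prkcd (10.4) through Sgk1 (8.58), Pdpk1 (7.10), Prkcz (4.22) and Prkca (3.47) to Sgk3 (2.10), again without overlap. Prkcd thus stood below Prkcz in both hairpin groups and above it in both control groups.

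**Figure D5:**
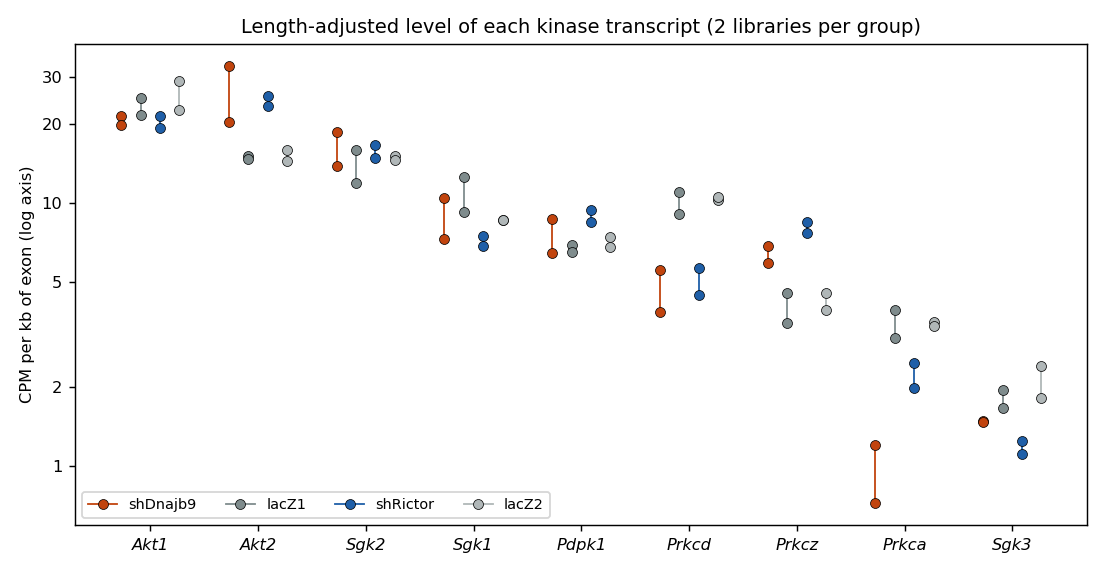
The vertical log axis gives the level of each kinase transcript in TMM-normalised CPM per kb of exon, and points joined by a line are the 2 libraries of a group, ordered shDnajb9, lacZ1, shRictor and lacZ2 for each gene. Akt2 averages above Akt1 in both hairpin groups and lies below it in both lacZ groups, and Prkca is lowest in shDnajb9.

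The exon lengths come from GENCODE M21 on GRCm38, the same assembly as mm10. There Akt1 lies on chromosome 12 (112653821 to 112674884, minus strand), Akt2 on chromosome 7 (27591552 to 27640826, plus strand) and Sgk3 on chromosome 1 (9798107 to 9900845, plus strand). Sgk1 lies on chromosome 10 (21882184 to 21999903) and Sgk2 on chromosome 2 (162987330 to 163014127), both on the plus strand, and Pdpk1 on chromosome 17 (24073680 to 24150924, minus strand). Prkca lies on chromosome 11 (107933387 to 108343928), Prkcd on chromosome 14 (30595354 to 30626210) and Prkcz on chromosome 4 (155260129 to 155361361), all on the minus strand. Of the 50-base stretches of exon, 14.8% of Prkcz also occur in Prkcz2 and 9.76% of Akt2 in the pseudogene Akt2-ps, so their counts are less certain than those of the other 7 genes, where at most 0.603% is shared. Prkca has 30 exon bases under Apoh on the other strand, and the strand setting of the counting is not given.

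The subunits and assembly factors of mTOR complex 2 form the first of 4 surrounding gene lists. In shDnajb9, 1 of 9 rose and 2 fell (33.3% called, beside 24.2% of all tested genes, with a median log2 fold change of -0.30, beside -0.05). Over the 18 alternatives the falls numbered 1 to 3 and the rises 0 or 1. Mtor, the catalytic subunit, stood at 41.5 and 93.1 CPM in shDnajb9, against 275 and 189 CPM in lacZ1, a log2 fold change of -1.78 (adjusted p = 0.0174, edgeR) that lost its call without shDnajb9 replicate 1 or lacZ1 replicate 1. Mlst8, a subunit of both mTOR complexes, stood at 2.72 and 3.65 CPM in shDnajb9, against 9.03 and 10.01 CPM in lacZ1 (-1.54, adjusted p = 0.00621, edgeR). In shRictor Mtor stood at 107 and 297 CPM, against 179 and 194 CPM in lacZ2, and these groups overlap. There 1 of 9 rose and none fell (11.1% called, beside 18.2%, with a median of -0.11, beside -0.02). The gene that rose was Deptor, an inhibitor of mTOR, at 346 and 347 CPM in shRictor, against 68.9 and 90.7 CPM in lacZ2 (2.12, adjusted p = 0.000414, edgeR). Deptor also rose in shDnajb9, with 144 and 193 CPM, against 103 and 85.8 CPM in lacZ1 (0.83, adjusted p = 0.0442), a call lost in 9 of 18 alternatives, among them any 1 library of its pair left out, the pair fitted alone and scaling to total counts only. The difference between the contrasts was 1.29 for Deptor (adjusted p = 0.394) and 1.89 for Mtor (adjusted p = 0.409, edgeR), and neither passed the test.

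Among the other AGC kinases, 11 of 41 tested fell and none rose in shDnajb9 (26.8% called, beside 24.2% of all tested genes, with a median log2 fold change of -0.48, beside -0.05), and 4 fell and none rose in shRictor (9.76% called, beside 18.2%, with a median of -0.26, beside -0.02). Without 1 library of the 8, the count of falls ran from 4 to 13 in shDnajb9 and from 0 to 8 in shRictor. It was 4 in shDnajb9 without replicate 1 of shDnajb9 or of lacZ1, and 0 in shRictor without replicate 1 of shRictor or of lacZ2. Leaving out shDnajb9 replicate 1 or 2, which are not in that pair, gave 7 or 8 in shRictor. With scaling to total counts only the falls were 23 in shDnajb9 and 15 in shRictor. Pkn3, a kinase related to protein kinase C, stood at 0.419 and 0.684 CPM in shDnajb9, against 4.78 and 4.88 CPM in lacZ1, a log2 fold change of -3.02 (adjusted p = 0.000992, edgeR). It stood at 2.23 and 1.95 CPM in shRictor, against 6.97 and 4.57 CPM in lacZ2 (-1.45). Mastl, a kinase of mitotic entry (-1.70), Mast2 (-1.94) and Adrbk2, a kinase of G protein-coupled receptors (-1.47), also fell in shDnajb9. In shRictor Adrbk2 (-1.43), Prkx, a relative of protein kinase A (-1.01), and Grk5, another receptor kinase (-0.87), fell too. The Grk5 call was lost in 10 of 18 alternatives, DESeq2, limma-voom and the pair fitted alone among them.

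Of 37 regulators that act on these kinases, 1 rose and 3 fell in shDnajb9 (10.8% called, beside 24.2% of all tested genes), and none rose and 1 fell in shRictor (2.7% called, beside 18.2%). The falls numbered 0 to 4 in shDnajb9 and 0 to 2 in shRictor with 1 library left out, with 0 in shDnajb9 without replicate 1 of shDnajb9 or of lacZ1 and 0 in shRictor without any 1 library of its pair. They numbered 8 and 7 with scaling to total counts only. Them4, which encodes a protein that binds Akt, stood at 19.1 and 19.2 CPM in shDnajb9, against 7.62 and 7.98 CPM in lacZ1 (1.29, adjusted p = 0.00355, edgeR). Genes for the lipid phosphatases SHIP1 (Inpp5d, -1.10) and SHIP2 (Inppl1, -0.87) and the chaperone Hsp90aa1 (-1.08) fell in shDnajb9. Hsp90aa1 also fell in shRictor (-1.06, adjusted p = 0.0452, edgeR), a call lost in 9 of 18 alternatives, the size factors of DESeq2 and the pair fitted alone among them.

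Of 38 tested substrates and effectors of Akt, SGK or protein kinase C, 1 rose and 5 fell in shDnajb9 (15.8% called, beside 24.2% of all tested genes, with a median log2 fold change of -0.08, beside -0.05), while 6 rose and 3 fell in shRictor (23.7% called, beside 18.2%, with a median of 0.23, beside -0.02). Cdkn1a, the cell cycle inhibitor p21, stood at 7.33 and 5.36 CPM in shDnajb9, against 69.5 and 47.3 CPM in lacZ1 (-3.23). It stood at 5.18 and 8.31 CPM in shRictor, against 111 and 61.2 CPM in lacZ2 (-3.66, each called in edgeR). Mdm2, a ubiquitin ligase for p53 (-1.19), Nedd4l, a ubiquitin ligase for the sodium channel (-1.27), and the histone methyltransferase Ezh2 (-0.93) also fell in shDnajb9. Scnn1a, a subunit of that channel, stood at 32.9 and 47.9 CPM in shRictor, against 7.20 and 10.2 CPM in lacZ2 (2.20, adjusted p = 0.00196, edgeR). Ppargc1a, a coactivator of gluconeogenic and mitochondrial genes (1.45), and Mtss1 (1.21) rose in shRictor as well. Without 1 library of the 8, the risers in shRictor numbered 2 to 8, with 2 without shRictor replicate 2 or lacZ2 replicate 1, and the falls 1 to 4, with 1 without either shRictor library or lacZ2 replicate 1. In shDnajb9 the rises then numbered 0 to 4, with 0 without either lacZ1 library and 4 without shDnajb9 replicate 2. The falls there numbered 2 to 9, with 2 without lacZ1 replicate 1, 3 without shDnajb9 replicate 1 and 9 without shDnajb9 replicate 2. With scaling to total counts only, none rose and 11 fell in shDnajb9, and 2 rose and 6 fell in shRictor.

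The genes with the pattern most like each called kinase were found by the root mean square difference of centred log2 CPM over the 8 libraries, among 12525 genes. For Akt2 they were Fance (0.0523), Aup1 (0.0558) and Cyc1 (0.0561), and the median over all compared genes was 0.518. For Sgk3 they were Dck (0.0769), Prmt1 (0.0792) and Rbm3 (0.0807). For Prkca they were Kdm2b (0.0945), Kcnq1ot1 (0.111) and Cpm (0.119), for Prkcd Ehbp1l1 (0.0880), Gab2 (0.0975) and Skp2 (0.107), and for Prkcz Tnfaip8l1 (0.0743), Pbld2 (0.0987) and Fbxo21 (0.104). Among the 9 kinases themselves the closest pair was Akt1 and Sgk3, at 0.230. The distances above are the smallest among 12525 genes for each kinase, so this value cannot be compared with them.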

How the data were processed

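Ribosomal RNA-depleted total RNA of mouse liver was sequenced in 8 libraries, 2 in each of 4 groups. Per the submitters' processing notes, the authors trimmed reads with cutadapt and used HTSeq and mm10. The deposited values are raw counts of reads by gene symbol, with 1 table for each library. The aligner, tool versions, annotation and strand setting are not given in the sources used here, so a count can include antisense or overlapping reads. Of the gene entries, 27 carry a date in place of a symbol. The classes that HTSeq left unassigned stayed out of library sizes and tests.

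The software was edgeR 4.0.16 in R 4.3.3, with limma 3.58.1 and DESeq2 1.42.0 as alternatives. Genes were kept by filterByExpr (minimum count 10), which left 13767 tested and 10295 out. Scaling by the trimmed mean (TMM) and 1 robust quasi-likelihood fit of 4 group means over all 8 libraries were used (4 residual degrees of freedom, common biological coefficient of variation 0.209). Contrasts were shDnajb9 minus lacZ1, shRictor minus lacZ2, their difference (Rictor minus Dnajb9) and lacZ2 minus lacZ1, with Benjamini-Hochberg adjustment over all tested genes. SE is the absolute log2 fold change divided by the square root of the quasi-likelihood F statistic. The 95% intervals are t intervals built from this SE, and n is 2 libraries per group. Gene lengths are union exon lengths. The fit was also run on counts simulated with the spread it had itself estimated, which cannot show whether it suits these libraries.

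The 9 kinases, the lists and the marker genes were chosen with earlier results of these data known. Named list genes are up to 4 called genes with the smallest p per list and contrast, and Mtor is also given in the Rictor contrast. The receptor kinases Grk2 and Grk3 carry older symbols in the tables (Adrbk1 and Adrbk2), as does Adgre1 (Emr1), matched through RefSeq synonyms, and Ighm was not matched. Of 44 other AGC kinases and 39 substrates and effectors, 41 and 38 were tested. Alternatives were other size factors, total counts only, the filter dropped or raised to 2 CPM in 2 libraries, DESeq2, limma-voom, only the libraries compared, a replicate block, each library left out, shDnajb9 replicate 1 and lacZ2 replicate 1 left out together, and the 10 most abundant genes left out. A crossed replicate block was added after seeing the data.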

Additional observations from a re-analysis of the deposited data

Results flagged for a closer look

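The log2 ratio of Prkcd counts over Prkca counts moved in opposite directions under the hairpins. It was 0.78 higher in shDnajb9 than in lacZ1, in both libraries, and differed by -0.40 in shRictor minus lacZ2, lower in both libraries. The difference between these was not tested. This ratio was picked from 7 because it ran in opposite directions without overlap. For Prkca itself, the difference between the contrasts did not pass the test (adjusted p = 0.407, edgeR).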

How the results depend on the processing

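Under 18 alternatives for the 9 kinases, 143 of 162 values of shDnajb9 minus lacZ1 kept their direction and their side of the threshold, 12 lost the call, 1 gained it and 6 changed sign. Of the 162 of shRictor minus lacZ2, 143 kept both, 12 lost the call, 4 gained it and 3 changed sign. The difference between contrasts had 17 sign changes in 153 values under 17 alternatives (Akt1, Akt2, Sgk1, Sgk2, Prkcd and Pdpk1), and lacZ2 minus lacZ1 had 10 in 162 (Akt1, Akt2, Sgk2, Prkca, Prkcd and Prkcz), with no kinase called in either. In both hairpin contrasts the values that changed sign belong to Sgk2 and Pdpk1, which were not called. With total counts only, they were -0.22 and -0.23 in shDnajb9 minus lacZ1 and -0.32 and -0.0715 in shRictor minus lacZ2. Leaving out single libraries or both that stood apart, Sgk2 ran from -0.0139 to 0.43 in the Dnajb9 contrast and from -0.000211 to 0.17 in the Rictor contrast, and Pdpk1 ran from -0.0634 to 0.38 in the Dnajb9 contrast. Of 450 values of the named genes of the surrounding lists, 63 lost the call and none changed sign. Mlst8, Pkn3, Mastl, Adrbk2, Cdkn1a and Mdm2 in shDnajb9 and Deptor, Cdkn1a and Scnn1a in shRictor kept the call in 18 of 18. When a single library was left out, the calls of Mtor, Deptor, Mast2, Them4, Inpp5d, Hsp90aa1, Inppl1, Nedd4l and Ezh2 in shDnajb9 and of Adrbk2, Pkn3, Prkx, Grk5, Hsp90aa1, Ppargc1a and Mtss1 in shRictor were lost at least in 1 case. Calls were also lost with all 8 libraries: of Deptor in shDnajb9 with total counts only and the replicate block, of Mtss1 with total counts only, of Grk5 with DESeq2, limma-voom and the block, and of Hsp90aa1 in shRictor with the size factors of DESeq2 and the block. The cause was not tested.

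The number of the 9 kinases called ran from 1 to 3 in shDnajb9 minus lacZ1 and from 0 to 4 in shRictor minus lacZ2 when each library was left out in turn, and was 1 and 1 without shDnajb9 replicate 1 and lacZ2 replicate 1. Over all genes, the 3325 calls of the Dnajb9 contrast became 998 to 4142 and the 2508 of the Rictor contrast 1053 to 3009 with single libraries left out, and the Dnajb9 contrast had 1675 without both libraries. The difference between contrasts had 1 called gene, against 395 with no filter, 45 with DESeq2, 0 to 19 with single libraries left out and 0 without both libraries. Between lacZ2 and lacZ1 no gene was called, against 13 with no filter, 1 with DESeq2, 1 with only the libraries compared and 0 to 1 with single libraries left out.

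The deviations of same-numbered libraries correlated with mixed sign over pairs of groups. The correlation was 0.20 between lacZ1 and lacZ2 and 0.32 between shDnajb9 and shRictor. It was -0.30 between lacZ1 and shDnajb9 and -0.33 between lacZ1 and shRictor. For lacZ2 it was 0.02 with shDnajb9 and -0.03 with shRictor. What lies behind these signs was not tested. With the replicate number as a block, 3 and 3 of the 9 kinases and 3289 and 2470 genes were called in the Dnajb9 and Rictor contrasts, 3 genes in their difference and 0 between the controls. A block with the numbers of both lacZ groups crossed, added after seeing the data, gave 4 and 4 kinases, 4541 and 3279 genes, 95 genes and 0 genes.

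The lowest count of any of the kinases in a library was 31, for Prkca in shDnajb9 replicate 1. With 2 libraries per group the median SE of a log2 fold change over all genes was 0.293 in the Dnajb9 contrast, and shifts as small as those of Akt1, Sgk1, Sgk2 and Pdpk1 could not be told from the spread between libraries at this size.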
